A study of Mus musculus with 19 samples.

Results

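The response of sugar breakdown and oxygen sensing to aspirated bacterial particles was followed through 33 mouse genes. They were picked by gene symbol and fall into 7 roles: 3 genes of the hexokinase step, 7 of the upper glycolytic enzymes, 2 enzymes that set the level of fructose 2,6-bisphosphate, 6 of the lower glycolytic enzymes, 4 glucose and lactate transporters, 4 hypoxia-inducible factor (HIF) subunits and prolyl hydroxylases, and 7 HIF target genes outside glycolysis. The deposited tables list 56941 genes. Each symbol matched 1 row except Aldoa, which matched 2, and its more abundant row was taken as the member. All 33 genes passed the filter on low counts.

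Glycolysis splits glucose into pyruvate in the cytosol, and lactate dehydrogenase turns pyruvate into lactate, which leaves the cell through monocarboxylate transporters. HIF is a dimer whose alpha subunit is marked for destruction by prolyl hydroxylases while oxygen is present. In low oxygen, and in macrophages stimulated by bacterial products, the alpha subunit is known to build up and to switch on glucose transporters, glycolytic enzymes and genes such as Vegfa. Resident alveolar macrophages live at the high oxygen and low glucose of the airspace and are known for leaning on fatty acid oxidation more than other macrophages do.

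RNA came from bronchoalveolar lavage pellets that the labels call alveolar macrophages, and no sort is described. All mice were females aged 7 to 8 weeks. Naive lungs came from 4 wild type C57Bl/6J and 5 ICAM-1 null mice, and exposed lungs from 5 mice of each genotype. Exposure meant 100 µL of Staphylococcus aureus pHrodo bioparticles, at 2.27 mg/mL, aspirated through the oropharynx under isoflurane, with lavage after 1 h. The labels do not say whether naive mice had a sham aspiration or on which background the null line was kept, so the aspiration itself and other differences between the lines cannot be told apart from the labelled factors. Icam1, the adhesion molecule gene named in the genotype, was at 63.8 to 85.9 TPM (a length-scaled share of each library, summing to the same total in all) in wild type naive libraries and at 4.88 to 11.5 TPM in null naive libraries. The exposed ranges were 722 to 1079 TPM in wild type and 9.48 to 13.2 TPM in null mice, so no library went against its genotype label.

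Total estimated counts ran from 32.8 to 80.3 M per library. The 11 alveolar macrophage markers, which include Siglecf, Marco and Chil3, summed to 23115 to 26741 TPM in wild type naive, 26748 to 30084 TPM in null naive, 26284 to 31626 TPM in wild type exposed and 28453 to 33478 TPM in null exposed libraries. None of them was at 0 throughout a group. By the edgeR test described below, 8 of the 11 rose and 2 fell on exposure in wild type, and 5 rose and 2 fell in null mice. Of all genes tested, 20.1% rose and 20.2% fell in wild type, and 21.4% rose and 23.4% fell in null mice. Some marker sums of other cells differed between groups too, and others overlapped. The 13 epithelial markers summed to 1209 to 1538 TPM in wild type naive, 1815 to 3898 TPM in wild type exposed, 1138 to 1258 TPM in null naive and 1193 to 1781 TPM in null exposed libraries, with Krt13 at 0 in all wild type naive libraries. The 6 red cell markers summed to 134 to 410 TPM in wild type naive and 370 to 2399 TPM in wild type exposed libraries, against 97.7 to 352 TPM and 129 to 351 TPM in null mice. The 10 neutrophil markers summed to 66.9 to 94.1 TPM in wild type naive and 170.1 to 184.7 TPM in null naive libraries, then to 86.0 to 117 TPM and 125 to 188 TPM after exposure, with Ngp at 0 in 3 of the groups and Camp at 0 in both exposed groups. The 8 markers of monocytes and interstitial macrophages summed to 41.0 to 67.7 TPM in wild type naive and 62.8 to 79.0 TPM in wild type exposed libraries, against 43.7 to 63.8 TPM and 42.2 to 68.8 TPM in null mice. The 9 lymphocyte markers summed to 53.4 to 62.6 TPM in wild type naive and 57.2 to 71.3 TPM in wild type exposed libraries. Their null sums were 48.0 to 58.5 TPM naive and 49.4 to 56.2 TPM exposed. For the 8 markers of endothelium and stroma, the wild type sums were 8.85 to 12.2 TPM naive and 11.5 to 14.7 TPM exposed. In null mice they were 8.53 to 10.6 TPM and 9.13 to 11.3 TPM. The part of these other cells in the results below was not tested. In such bulk samples, fewer cells of a type and less RNA per cell cannot be told apart.

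The HIF dimer is known to bind the core letters ACGTG or GCGTG. Promoters of 30 of the 33 genes were found in the RefSeq promoter table of mouse build GRCm38.p6 (none for Epas1, Bnip3l and Ndrg1), as windows of 300 bases running from 250 bases before a start site to 50 after it. The core, on either strand, stood in 36 of 44 windows of these genes (81.8%) and in 43.8% of all 32851 windows in the table. The median GC content was 62.2% in the windows of these genes and 52.7% in all windows, and both core motifs hold CG. The E-box CACGTG, whose letters contain the core on both strands, stood in 6 of the 44 windows (13.6%, against 7.15% of all), and the AP-1 motif TGANTCA in 1 (2.27%, against 7.81%). Below are the 250 bases before the start site for Hk2, Slc2a6 and Ldha, whose RNA rose in both genotypes, and for Pfkfb4, whose RNA fell. They are written 5′ to 3′ on the strand of the gene, with each core match in capitals, either as ACGTG or GCGTG or as the reverse complements CACGT or CACGC.
Hk2 (chr6:82774455-82774704, minus strand): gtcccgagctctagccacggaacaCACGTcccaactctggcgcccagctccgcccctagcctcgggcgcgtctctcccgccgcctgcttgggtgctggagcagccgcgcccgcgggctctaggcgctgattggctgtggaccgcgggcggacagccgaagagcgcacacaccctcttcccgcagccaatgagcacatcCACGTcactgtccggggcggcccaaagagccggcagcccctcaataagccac
Slc2a6 (chr2:27027999-27028248, minus strand): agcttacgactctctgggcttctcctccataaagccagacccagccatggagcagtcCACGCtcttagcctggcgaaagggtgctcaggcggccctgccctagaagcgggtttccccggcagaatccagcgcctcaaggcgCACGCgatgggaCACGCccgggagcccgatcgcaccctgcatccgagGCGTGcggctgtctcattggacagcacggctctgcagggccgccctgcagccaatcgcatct
Ldha (chr7:46845554-46845803, plus strand): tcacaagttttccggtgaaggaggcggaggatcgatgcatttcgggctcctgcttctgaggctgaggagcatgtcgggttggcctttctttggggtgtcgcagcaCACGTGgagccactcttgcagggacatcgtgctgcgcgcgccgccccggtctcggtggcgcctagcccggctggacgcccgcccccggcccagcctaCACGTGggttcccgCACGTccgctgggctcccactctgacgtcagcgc
Pfkfb4 (chr9:108991652-108991901, plus strand): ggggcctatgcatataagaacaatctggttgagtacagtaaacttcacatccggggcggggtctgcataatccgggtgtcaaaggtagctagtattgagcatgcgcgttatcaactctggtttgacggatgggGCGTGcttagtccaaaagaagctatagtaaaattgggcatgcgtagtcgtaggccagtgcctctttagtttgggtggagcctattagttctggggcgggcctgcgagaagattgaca
Hk2 held 2 matches in this stretch, Slc2a6 held 4, Ldha held 5 and Pfkfb4 held 1. In Ldha, 4 of the 5 matches come from 2 copies of the E-box. A match of letters is not a measured binding site. The core was present upstream of genes that rose and also upstream of Pfkfb4, Egln1 and Pdk1, which fell in both genotypes.

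After exposure, 16 of the 33 genes rose and 4 fell in wild type mice, and 16 rose and 4 fell in null mice. A gene is said to rise or fall here when edgeR's quasi-likelihood test gave a Benjamini-Hochberg adjusted p under 0.05 over all 20501 genes tested, and log2 fold changes are on TMM-scaled counts, a scaling that sets the bulk of genes level between libraries. Of all genes tested, 40.2% passed in wild type (20.1% higher and 20.2% lower) and 44.8% in null mice (21.4% higher and 23.4% lower). The median log2 fold change of the 33 genes was 0.50 in wild type and 0.28 in null mice, beside 0.02 in both over all genes. The 33 genes were chosen with earlier results of these data known, so their distance from all genes was not tested. The 13 genes that rose in both genotypes were Hk2, Pfkl, Pfkm, Pfkp, Pfkfb3, Pgam1, Ldha, Slc2a1, Slc2a6, Hif1a, Vegfa, Adm and Ndrg1, and the 4 that fell in both were Pfkfb4, Egln1, Bnip3l and Pdk1. Both comparisons are shown by role in the plot of log2 fold changes.

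**Figure D1:**
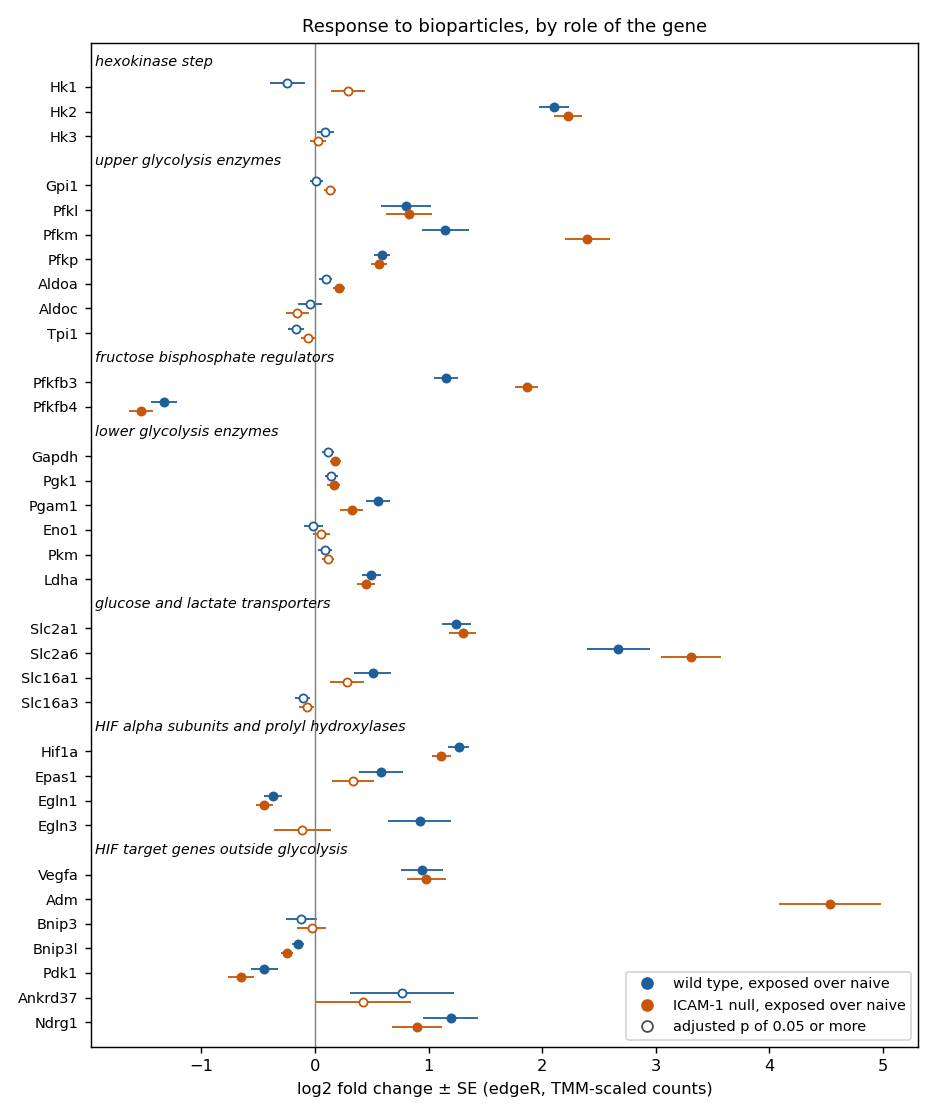
Log2 fold change of exposed over naive libraries (x axis, TMM-scaled counts) for each gene, in wild type (blue) and ICAM-1 null mice (orange), with bars for the SE and open points where the adjusted p was 0.05 or more. Hk2, Pfkfb3, Slc2a1, Slc2a6, Pfkm and Hif1a lie to the right in both genotypes, and Pfkfb4, Egln1, Bnip3l and Pdk1 to the left; Adm in wild type is left out because all 4 naive libraries held 0 counts.

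The choice of scale decided the direction for many of the abundant enzymes. On the TPM values as deposited, the median gene fell by 0.22 on the log2(TPM + 1) scale in wild type and by 0.19 in null mice. A gene that is level on TMM-scaled counts thus sits lower in TPM after exposure. On log2(TPM + 0.1) the median fell by 0.33 and 0.31. The median depends on the amount added to TPM, so the shift of abundant genes cannot be read from it. With limma on log2(TPM + 1), 8 members rose and 16 fell in wild type mice, and 7 rose and 13 fell in null mice. The same fit called 11% of all genes higher and 41% lower in wild type, and 10.9% higher and 41% lower in null mice, so the share of members that fell lay near that of all genes. Hk2, Pfkm, Pfkfb3, Slc2a1, Slc2a6, Hif1a and Adm rose in both genotypes by both methods, and Pfkfb4, Egln1, Bnip3l and Pdk1 fell in both genotypes by both methods. The 33 genes together made up 0.684 to 0.737% of TPM in wild type naive, 0.630 to 0.682% in null naive, 0.552 to 0.670% in wild type exposed and 0.549 to 0.642% in null exposed libraries.

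**Figure D2:**
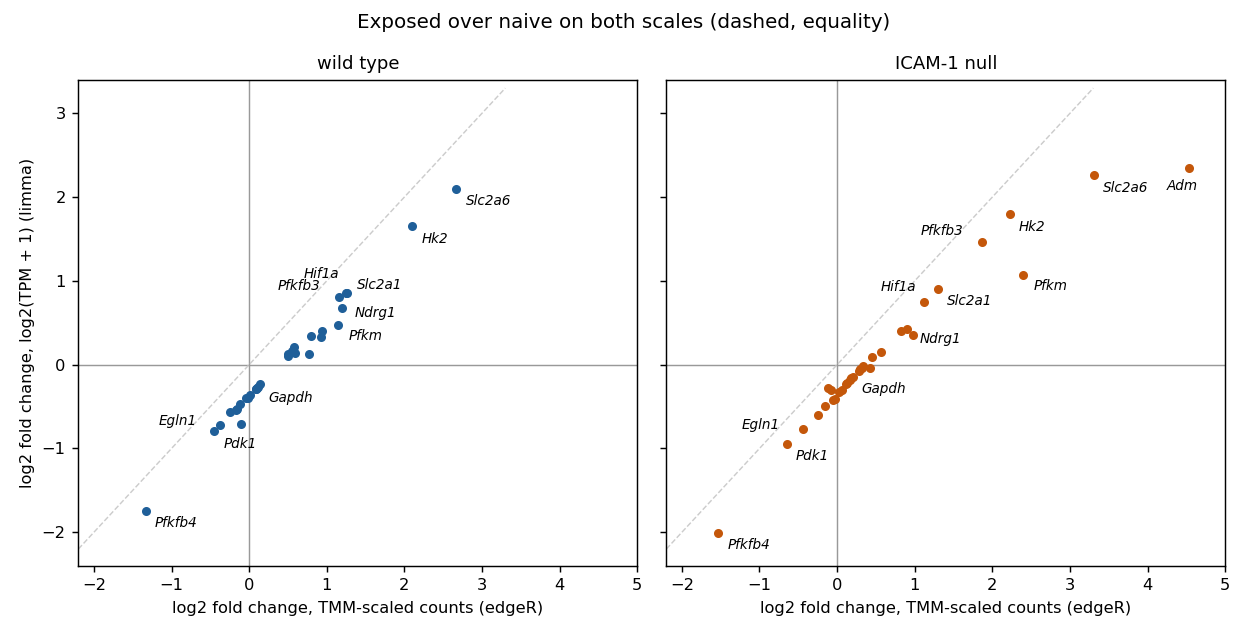
Log2 fold change of exposed over naive for each gene on TMM-scaled counts (x axis, edgeR) and on log2(TPM + 1) (y axis, limma), in wild type (left) and null mice (right; Adm in wild type is left out). Points lie below the dashed line of equality among the genes that rose, and Gapdh and its neighbours lie right of 0 on the x axis and below 0 on the y axis.

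Hexokinases, which trap glucose in the cell as its phosphate, changed make-up. Hk2, the inducible isoform that can sit on mitochondria, lies on GRCm39 chr6:82702006-82751435. Its level was 16.1, 18.3, 14.4 and 16.5 TPM in wild type naive and 40.2, 48.1, 59.0, 63.1 and 58.9 TPM in wild type exposed libraries. In null mice it was 16.5, 18.2, 17.4, 18.5 and 17.5 TPM in naive and 54.1, 63.7, 53.2, 67.3 and 83.7 TPM in exposed libraries. Every exposed library lay above every naive one. Hk2 rose 4.30-fold in wild type (log2 fold change 2.10, SE 0.14, adjusted p = 5.68e-11) and 4.68-fold in null mice (log2 fold change 2.23, SE 0.12, adjusted p = 4.18e-12), and it stayed past the threshold in every alternative that was run.

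Hk3, a low-capacity isoform typical of myeloid cells, was the most abundant hexokinase in naive libraries (chr13:55153798-55169198). It held 33.3, 36.1, 28.7 and 31.6 TPM in wild type naive and 22.4, 26.5, 32.8, 27.3 and 23.2 TPM in wild type exposed libraries. Null naive libraries held 36.6, 41.4, 36.7, 36.1 and 38.7 TPM and null exposed libraries 30.1, 28.0, 29.3, 29.4 and 33.3 TPM. Its TPM was lower after exposure, with overlap in wild type and none in null mice, while its log2 fold change on TMM-scaled counts was 0.09 (adjusted p = 0.368) and 0.02 (adjusted p = 0.806). On log2(TPM + 1) the differences were -0.29 in wild type and -0.33 in null mice, so the sign turned with the scale.

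Hk1, the widely expressed isoform, was the least abundant of the hexokinases (chr10:62104634-62215687). Its values were 10.6, 9.68, 10.2 and 8.88 TPM in wild type naive and 5.37, 6.40, 7.64, 7.495 and 5.01 TPM in wild type exposed libraries. They were 4.31, 3.80, 3.78, 3.13 and 5.90 TPM in null naive and 4.72, 2.93, 4.01, 4.54 and 3.59 TPM in null exposed libraries. Wild type libraries lay above null libraries of the same state in each case. Neither exposure test passed for Hk1 (log2 fold change -0.24, adjusted p = 0.236 in wild type and 0.29, adjusted p = 0.120 in null mice), while on log2(TPM + 1) Hk1 fell in wild type (-0.57, adjusted p = 0.00470, limma).

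Of the summed hexokinase TPM, Hk2 made up 26.8 to 28.9% in wild type naive, 28.2 to 32.0% in null naive, 59.1 to 67.6% in wild type exposed and 60.9 to 69.4% in null exposed libraries. Hk3 went the other way, from 53.8 to 56.4% and 62.3 to 65.2% in the naive groups to 26.7 to 33.003% and 27.6 to 33.9% in the exposed groups. The sum of all 3 was 53.4 to 64.1 TPM in wild type naive and 67.9 to 99.5 TPM in wild type exposed libraries, and 57.4 to 63.4 TPM and 86.4 to 121 TPM in null mice. So the hexokinase sum was higher in every exposed library than in any naive library of its genotype, and Hk2 in place of Hk3 was its largest part. Shares are free of the scaling between libraries, and they were not tested.

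**Figure D3:**
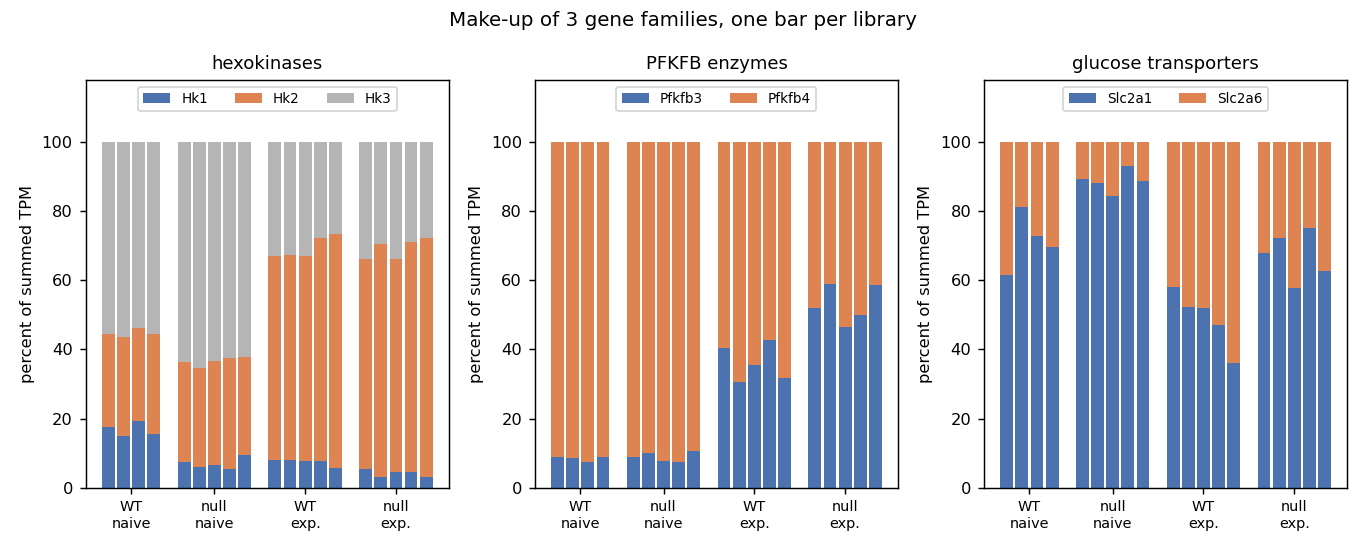
Share of the summed TPM of each family held by its members (y axis, percent), with 1 bar per library in the 4 groups. Hk2 passes Hk3 as the largest part in all exposed libraries, and Pfkfb3 grows from under 11% of the Pfkfb3 and Pfkfb4 sum to 30.6% or more. Slc2a6 takes a larger part of the Slc2a1 and Slc2a6 sum after exposure in both genotypes. Other glucose carriers are not part of that sum.

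Phosphofructokinase is the committed step of glycolysis and has liver (Pfkl), muscle (Pfkm) and platelet (Pfkp) forms. Pfkp was the main form here, with 121 ± 5.66 TPM (mean ± SD) in wild type naive, 133 ± 13.2 in wild type exposed, 115 ± 9.34 in null naive and 128 ± 7.64 in null exposed libraries. It rose 1.51-fold in wild type (adjusted p = 1.16e-06) and 1.48-fold in null mice (adjusted p = 6.63e-07) on TMM-scaled counts, while the TPM of both pairs of groups overlapped. The TMM-scaled counts of Pfkp did not overlap in either genotype. Its share of the summed phosphofructokinase TPM was 72.5 to 85.4% over all 19 libraries.

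Pfkm, the rarest form, showed the steepest change of the 3 forms in null mice (chr15:97990470-98030332). It was at 1.04, 1.47, 1.34 and 0.862 TPM in wild type naive and 1.70, 1.89, 2.21, 2.26 and 1.97 TPM in wild type exposed libraries. In null mice the values were 0.783, 0.566, 0.637, 0.649 and 1.37 TPM naive and 2.47, 3.33, 2.32, 2.23 and 3.46 TPM exposed. Exposed libraries were above naive ones in both genotypes, and null naive library 5 stood above the other null naive libraries in TPM, while on TMM-scaled counts it was the lowest of them. The rise was 2.22-fold in wild type (log2 fold change 1.15, SE 0.21, adjusted p = 0.000120) and 5.27-fold in null mice (log2 fold change 2.40, SE 0.20, adjusted p = 2.22e-09). These levels rest on 49 to 326 counts per library, and Pfkm overlaps Senp1, which reached 13.0 TPM and could share reads with it. On log2(TPM + 1), where low values are compressed, the differences were 0.47 and 1.07.

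Pfkl rose 1.74-fold in wild type (adjusted p = 0.00574) and 1.77-fold in null mice (adjusted p = 0.00228), with uneven libraries. Wild type exposed libraries 1 to 5 held 21.2, 23.5, 50.3, 39.1 and 41.6 TPM and null exposed libraries 20.9, 19.9, 42.6, 33.2 and 34.8 TPM. Naive libraries held 25.3 to 27.8 TPM in wild type and 19.9 to 24.8 TPM in null mice, so exposed libraries 1 and 2 lay below the naive range in wild type and within it in null mice, while libraries 3 to 5 lay above it in both. On log2(TPM + 1) neither difference passed (0.35, adjusted p = 0.202, and 0.40, adjusted p = 0.123).

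The bifunctional enzymes Pfkfb3 and Pfkfb4 make and break fructose 2,6-bisphosphate, the strongest activator of phosphofructokinase, and they moved in opposite directions. Pfkfb3, whose product favours the making of this activator, was at 18.3, 15.7, 14.8 and 17.9 TPM in wild type naive and 29.0, 32.8, 32.9, 30.8 and 24.4 TPM in wild type exposed libraries (chr2:11476244-11558888). Null libraries held 16.9, 16.3, 12.5, 12.8 and 17.7 TPM when naive and 35.5, 44.0, 43.4, 42.3 and 53.7 TPM when exposed. All exposed libraries lay above all naive ones, and all null exposed libraries lay above all wild type exposed ones. Pfkfb3 rose 2.22-fold in wild type (log2 fold change 1.15, SE 0.11, adjusted p = 1.98e-08) and 3.64-fold in null mice (log2 fold change 1.86, SE 0.10, adjusted p = 2.24e-12).

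Pfkfb4 began as 1 of the 10 most abundant of the 33 genes (chr9:108820846-108861296). Its naive levels were 185, 168, 184 and 184 TPM in wild type and 175, 146, 149.7, 159.7 and 149.7 TPM in null mice. After exposure they were 42.8, 74.3, 59.8, 41.3 and 52.4 TPM in wild type and 32.7, 30.5, 50.1, 42.1 and 37.7 TPM in null mice. No exposed library reached the naive range. Pfkfb4 fell in wild type (log2 fold change -1.33, SE 0.11, adjusted p = 5.22e-09) and in null mice (log2 fold change -1.53, SE 0.11, adjusted p = 2.32e-10), to 0.398 and 0.346 of the naive level on TMM-scaled counts. Pfkfb3 made up 7.44 to 9.01% of the summed TPM of these enzymes in wild type naive and 7.42 to 10.55% in null naive libraries, then 30.6 to 42.7% in wild type exposed and 46.4 to 59.0% in null exposed libraries.

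Most of the other enzymes from glucose phosphate to lactate changed little. Gapdh, which makes the first NADH of the pathway, was the most abundant of all 33 genes (chr6:125138678-125143430). Its TPM was 2052, 2048, 1785 and 1872 in wild type naive and 1627, 1639.7, 1773, 1586 and 1418 in wild type exposed libraries. In null mice it was 1786, 1853, 1728, 1681 and 1856 naive and 1605, 1459, 1700.0, 1563 and 1637 exposed. The TPM ranges of naive and exposed libraries were apart in wild type and overlapped in null mice, with the exposed values lower. On TMM-scaled counts Gapdh did not pass in wild type (0.11, adjusted p = 0.0953) and rose 1.13-fold in null mice (adjusted p = 0.00574), whereas on log2(TPM + 1) the differences were -0.27 and -0.16.

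Aldoa, which splits fructose bisphosphate, behaved alike (chr7:126394406-126399923). Its TPM was 1483, 1486, 1389 and 1384 in wild type naive, 1169, 1218, 1287, 1176 and 1053 in wild type exposed, 1327, 1452, 1366, 1356 and 1404 in null naive and 1205, 1119, 1366, 1248 and 1293 in null exposed libraries. The exposed values lay below the naive ones in wild type and overlapped them in null mice. Its log2 fold changes on TMM-scaled counts were 0.10 (adjusted p = 0.198) in wild type and 0.21 (adjusted p = 0.00303) in null mice, against -0.28 and -0.15 on log2(TPM + 1).

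Pgk1, the first ATP-making step, rose 1.12-fold in null mice (adjusted p = 0.0175) and had a log2 fold change of 0.14 in wild type (adjusted p = 0.0533), with -0.23 and -0.19 in wild type and null mice on log2(TPM + 1). The call in null mice was lost without null exposed library 3 (adjusted p = 0.0530). Gpi1, Aldoc, Eno1 and Pkm passed in none of the 5 comparisons on TMM-scaled counts, and Tpi1 in neither exposure comparison. On log2(TPM + 1) all 5 of these enzymes fell after exposure in both genotypes, with differences such as -0.24 for Pkm in null mice and -0.54 for Tpi1 in wild type. Gapdh, Tpi1 and Pkm overlap other expressed genes, and most of these enzymes have near-identical processed copies in the genome, so their counts carry that uncertainty.

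Of the lower enzymes, Pgam1 and Ldha rose in both genotypes. Pgam1, a phosphoglycerate mutase, rose 1.46-fold in wild type (adjusted p = 0.000236) and 1.25-fold in null mice (adjusted p = 0.0107), and its difference on log2(TPM + 1) in null mice was -0.04, against the direction of the counts. Ldha, the lactate dehydrogenase subunit favouring lactate, rose 1.41-fold in wild type (adjusted p = 5.95e-05) and 1.36-fold in null mice (adjusted p = 7.59e-05). Its TPM was 912, 945, 879 and 907 in wild type naive, 921, 913, 1056, 1041 and 969 in wild type exposed, 921, 896, 807, 904 and 865 in null naive and 798, 829.6, 1053, 894 and 1134 in null exposed libraries. The TPM ranges overlapped in both genotypes, and the differences on log2(TPM + 1), 0.10 and 0.09, did not pass. The TMM-scaled counts of Ldha were apart in both genotypes.

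**Figure D4:**
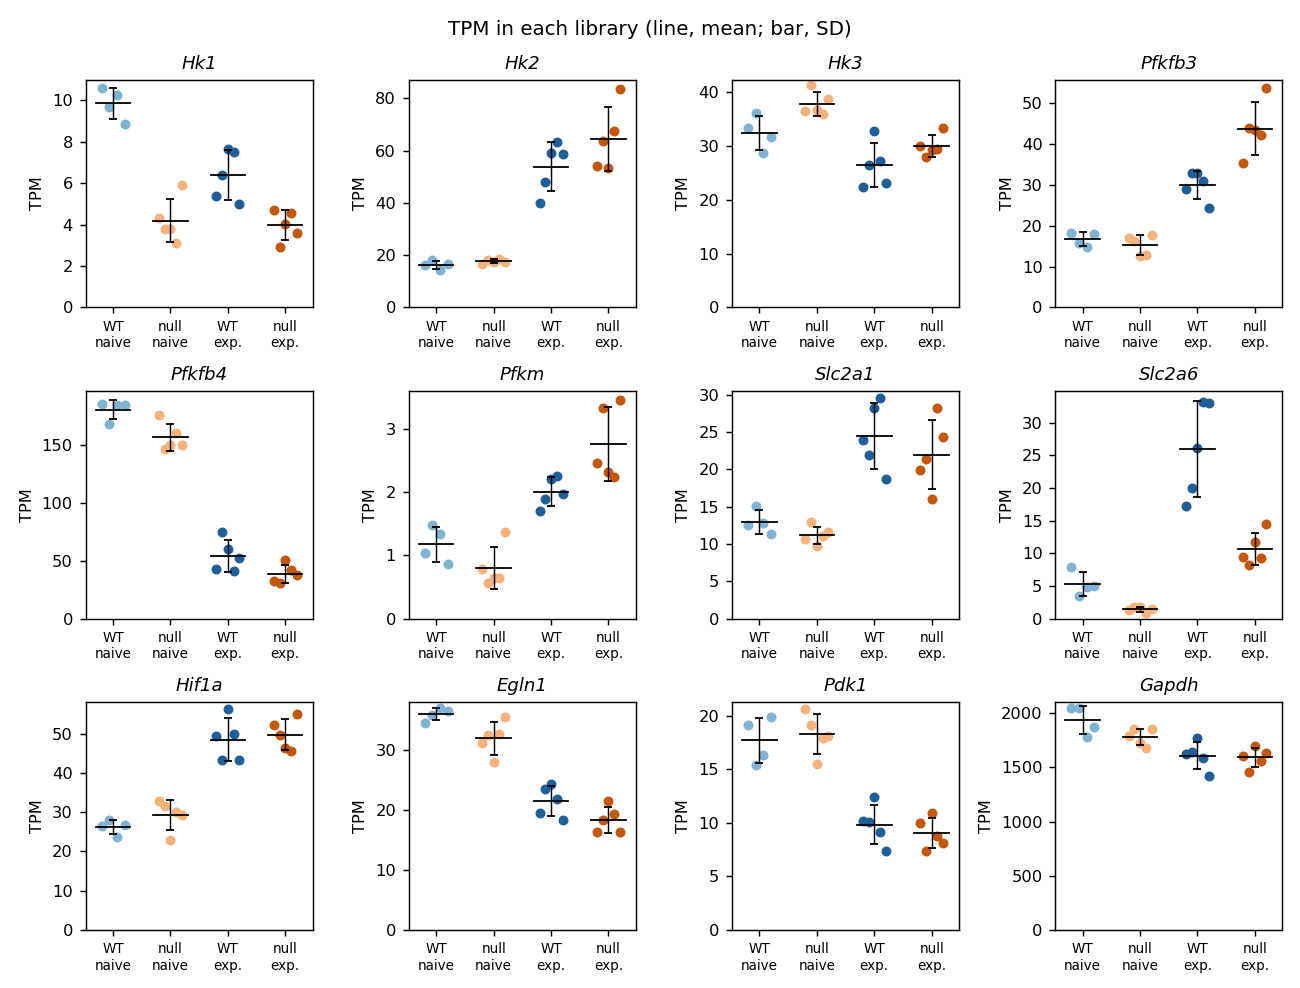
TPM in each library (y axis, from 0) for 12 of the genes in the 4 groups, with the mean as a line and the SD as a bar. Exposed libraries lie above naive ones for Hk2, Pfkfb3, Pfkm, Slc2a1, Slc2a6 and Hif1a and below them for Pfkfb4, Egln1 and Pdk1 in both genotypes, and wild type lies above null for Hk1 and Slc2a6.

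Among the transporters, both glucose carriers rose. Slc2a1, the GLUT1 carrier of basal glucose uptake, was at 12.6, 15.1, 12.8 and 11.3 TPM in wild type naive and 24.0, 22.0, 28.2, 29.5 and 18.7 TPM in wild type exposed libraries (chr4:118965908-118995180). Null libraries held 10.6, 12.9, 9.67, 11.03 and 11.6 TPM naive and 20.0, 21.4, 16.0, 28.2 and 24.4 TPM exposed. The exposed and naive values did not overlap in either genotype. Slc2a1 rose 2.37-fold in wild type (log2 fold change 1.24, SE 0.13, adjusted p = 7.80e-08) and 2.46-fold in null mice (log2 fold change 1.30, SE 0.12, adjusted p = 9.01e-09).

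Slc2a6, the GLUT6 carrier of inner membranes that inflammatory macrophages are known to induce, had the largest rise of the glucose and lactate transporters (chr2:26911375-26918010). It was at 7.85, 3.50, 4.80 and 4.94 TPM in wild type naive and 17.2, 20.0, 26.2, 33.2 and 32.99 TPM in wild type exposed libraries. The null values were 1.27, 1.72, 1.80, 0.834 and 1.45 TPM naive and 9.40, 8.23, 11.7, 9.35 and 14.5 TPM exposed. Exposed libraries were above naive ones in each genotype, and null libraries were below wild type ones in each state. Its rise was 6.37-fold in wild type (log2 fold change 2.67, SE 0.27, adjusted p = 9.07e-08) and 9.90-fold in null mice (log2 fold change 3.31, SE 0.27, adjusted p = 1.49e-09). Slc2a6 held 18.8 to 38.4% of the summed TPM of both carriers in wild type naive and 7.03 to 15.7% in null naive libraries, and 41.8 to 63.8% and 24.9 to 42.2% after exposure.

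Slc16a3, the MCT4 exporter of lactate, was the most abundant transporter in naive libraries (chr11:120839306-120851694). Its TPM was 52.7, 57.7, 52.5 and 40.6 in wild type naive and 24.1, 29.7, 37.4, 27.9 and 34.8 in wild type exposed libraries. In null mice it was 36.5, 36.4, 27.1, 37.8 and 32.7 naive and 27.4, 25.2, 29.7, 27.6 and 26.5 exposed. Neither exposure test passed on TMM-scaled counts (-0.11, adjusted p = 0.225, and -0.07, adjusted p = 0.391), while the TPM differences were -0.71 in wild type and -0.30 in null mice. Slc16a3 overlaps Csnk1d, which reached 98.9 TPM, so the reads of both may be mixed. Slc16a1, the MCT1 carrier, rose 1.42-fold in wild type (adjusted p = 0.0163, and 0.0741 without wild type naive library 1) and had a log2 fold change of 0.28 in null mice (adjusted p = 0.140).

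Among the HIF subunits and hydroxylases, Hif1a rose and Egln1 fell in both genotypes. Hif1a, the broadly expressed alpha subunit, was at 26.6, 27.9, 23.7 and 26.7 TPM in wild type naive and 49.3, 43.4, 56.5, 50 and 43.3 TPM in wild type exposed libraries (chr12:73948149-73994304). Null libraries held 32.8, 31.5, 22.9, 30.0 and 29.4 TPM naive and 52.2, 49.7, 46.5, 45.6 and 55.0 TPM exposed. Every exposed library lay above every naive one. Hif1a rose 2.40-fold in wild type (log2 fold change 1.26, SE 0.09, adjusted p = 5.23e-10) and 2.16-fold in null mice (log2 fold change 1.11, SE 0.09, adjusted p = 8.08e-10).

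Egln1, the main prolyl hydroxylase that marks HIF alpha subunits for destruction, fell in both genotypes (chr8:125635326-125676063). It was at 34.5, 35.8, 36.8 and 36.3 TPM in wild type naive and 19.4, 23.4, 24.2, 21.8 and 18.3 TPM in wild type exposed libraries. The null values were 31.0, 32.4, 27.9, 32.6 and 35.4 TPM naive and 16.3, 18.3, 21.4, 19.2 and 16.3 TPM exposed. The ranges were apart in both genotypes. The log2 fold changes were -0.37 (SE 0.08, adjusted p = 0.000655) and -0.45 (SE 0.07, adjusted p = 4.50e-05).

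Epas1, the other alpha subunit, rose 1.498-fold in wild type (adjusted p = 0.0210), but the call was lost without wild type naive library 1, 3 or 4 or wild type exposed library 1, with adjusted p-values up to 0.0879. In null mice Epas1 did not pass (0.33, adjusted p = 0.146). Egln3, a hydroxylase that HIF itself induces, rose 1.89-fold in wild type (adjusted p = 0.0101) from 1.27 ± 0.365 TPM. Its wild type TPM overlapped (0.806 to 1.69 naive and 1.01 to 2.33 exposed), and on log2(TPM + 1) it did not pass as higher. In null mice Egln3 had a log2 fold change of -0.11 (adjusted p = 0.748). The difference between these responses did not pass for either gene (adjusted p = 0.841 for Epas1 and 0.315 for Egln3). Hif1a held 62.8 to 74.8% of the summed TPM of the alpha subunits in wild type naive and 73.0 to 81.8% in wild type exposed libraries, against 62.8 to 80.2% and 78.3 to 87.2% in null mice.

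HIF target genes outside glycolysis did not move as a block. Adm, which encodes the vessel-dilating peptide adrenomedullin, had 0 counts in all 4 wild type naive libraries (chr7:110226868-110229027). It was at 2.45, 1.37, 2.36, 2.27 and 1.00 TPM in wild type exposed libraries, or 34 to 109 counts. Null libraries held 0.368, 0.157, 0.135, 0.650 and 0.0936 TPM naive and 6.95, 6.45, 4.34, 4.38 and 5.39 TPM exposed. Exposed libraries lay above naive ones in both genotypes. Set against a floor of 12 counts per naive library, taken as 3 sequenced fragments, Adm was at least 6.35-fold higher in wild type exposed libraries (adjusted p = 1.25e-07), a bound that covers counting error only. In null mice it rose 23.1-fold (log2 fold change 4.53, SE 0.45, adjusted p = 1.42e-07) from 4 to 37 counts per library. Some of these naive counts lie under the floor of 12, so the size of this fold is uncertain. Over the alternatives that were run, its log2 fold change in null mice lay between 2.34 and 5.12.

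Ndrg1, a stress-response gene, was at 2.33, 1.58, 3.67 and 3.17 TPM in wild type naive and 4.43, 5.41, 3.65, 5.76 and 4.77 TPM in wild type exposed libraries (chr15:66801167-66841489). Null libraries held 2.59, 3.83, 3.78, 3.85 and 3.58 TPM naive and 6.26, 6.93, 3.41, 4.06 and 5.37 TPM exposed. Exposed library 3 lay within the naive TPM range in wild type and in null mice, and the other exposed libraries lay above it. On TMM-scaled counts, Ndrg1 was higher in every exposed library than in any naive library of its genotype. It rose 2.29-fold in wild type (log2 fold change 1.19, SE 0.24, adjusted p = 0.000376) and 1.87-fold in null mice (log2 fold change 0.90, SE 0.22, adjusted p = 0.00188). Vegfa, the vascular growth factor, rose 1.92-fold (adjusted p = 0.000315) and 1.97-fold (adjusted p = 7.35e-05) from 3.76 ± 0.934 TPM in wild type and 3.34 ± 0.551 TPM in null mice, and on log2(TPM + 1) neither difference passed (adjusted p = 0.0592 and 0.0760).

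Pdk1, a mitochondrial kinase that inhibits pyruvate dehydrogenase, fell in both genotypes (chr2:71703568-71734202). It was at 19.1, 15.4, 16.3 and 19.9 TPM in wild type naive and 10.2, 10.1, 12.4, 9.09 and 7.38 TPM in wild type exposed libraries. Null libraries held 20.6, 19.1, 15.5, 17.9 and 18.1 TPM naive and 10.01, 7.36, 10.9, 8.71 and 8.13 TPM exposed. No exposed library reached the naive range. The log2 fold changes were -0.45 (SE 0.12, adjusted p = 0.00419) and -0.65 (SE 0.11, adjusted p = 5.51e-05).

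Bnip3l, a receptor for the removal of mitochondria, also needed as red cells mature, was the most abundant of these target genes (chr14:67222688-67246326). It held 172, 169.8, 188 and 195 TPM in wild type naive and 125, 129.7, 139, 121 and 114 TPM in wild type exposed libraries. Null naive libraries held 198, 196, 182, 196 and 211 TPM and null exposed libraries 128, 128, 139, 124 and 127 TPM. All exposed libraries were below all naive ones in TPM. On TMM-scaled counts it fell by less, with log2 fold changes of -0.15 (adjusted p = 0.0341) in wild type and -0.25 (adjusted p = 0.000488) in null mice, and the wild type call was lost in 5 of the 19 fits that left out 1 library (wild type naive library 3 or 4, or wild type exposed library 2, 4 or 5), with adjusted p-values up to 0.128. Its relative Bnip3 and the ankyrin repeat gene Ankrd37 passed in none of the 5 comparisons, and Ankrd37, at 1.17 to 2.71 TPM in wild type naive libraries, overlaps Ufsp2, which reached 58.1 TPM.

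Null and wild type mice were then compared in the same state. In naive mice, 2 of the 33 genes were higher and 5 lower in null mice, beside 6.86% of all genes tested (4.31% higher and 2.55% lower). In exposed mice, 3 were higher and 5 lower, beside 8.48% (4.43% higher and 4.04% lower). Hk1, Tpi1, Slc2a6 and Slc16a3 were lower and Hk3 and Adm higher in null mice in both states. Pfkm also passed as lower in naive mice, and in exposed mice Pfkfb4 passed as lower and Pfkfb3 as higher. Whether the states differ is given by the interaction below. By limma on log2(TPM + 1), Hk1, Tpi1, Slc2a6 and Slc16a3 were lower in naive null mice and none of the 33 genes was higher. In exposed null mice, Hk1, Pfkfb4, Tpi1 and Slc2a6 were lower and Pfkfb3 and Adm higher by that fit. The neutrophil marker sum given above was higher in null than in wild type libraries in both states, without overlap. The single markers did not all go with the sum. Of the 7 tested, 3 were higher and 0 lower in naive null mice, and 3 were higher and 2 lower in exposed null mice.

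Slc2a6 had the largest genotype difference that rests on counts in every library. It was 0.270 of the wild type level in naive null mice (log2 fold change -1.89, SE 0.27, adjusted p = 5.50e-05) and 0.420 in exposed null mice (log2 fold change -1.25, SE 0.24, adjusted p = 0.00132). Both calls held in every alternative that was run. Hk1 stood at 0.443 of the wild type level in naive mice (log2 fold change -1.18, SE 0.16, adjusted p = 2.33e-05) and at 0.641 in exposed mice (log2 fold change -0.64, SE 0.15, adjusted p = 0.00757). With wild type naive libraries 1 to 3, the shallowest, left out together, the naive Hk1 difference was -1.005 (adjusted p = 0.0598); that fit has 1 wild type naive library, assumed to vary like the other groups.

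Adm was 2.90-fold higher in exposed null than in exposed wild type libraries (log2 fold change 1.53, SE 0.39, adjusted p = 0.0169), without overlap. In naive mice the test passed too (adjusted p = 0.000572), but wild type libraries were all at 0, and the null mean, 0.189 TMM-scaled counts per M, lay under the 0.243 that 12 counts per library are worth in the wild type naive group, so no fold is given. Pfkfb3 was 1.52-fold higher in exposed null mice (log2 fold change 0.60, SE 0.10, adjusted p = 0.000243), and in naive mice the difference was -0.11 (adjusted p = 0.706). Pfkm was lower in naive null mice (log2 fold change -0.79, SE 0.20, adjusted p = 0.0181), a call lost without wild type naive library 2 or 3 (adjusted p = 0.0829 and 0.0776). On log2(TPM + 1) Pfkm did not pass in naive mice, and its naive TPM overlapped between the genotypes.

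The remaining genotype calls were small. Tpi1 differed by -0.34 in naive (adjusted p = 0.00454) and -0.23 in exposed mice (adjusted p = 0.0434), and Slc16a3 by -0.30 (adjusted p = 0.00662) and -0.27 (adjusted p = 0.0109). Hk3 differed by 0.30 (adjusted p = 0.0139) and 0.23 (adjusted p = 0.0406), and Pfkfb4 in exposed mice by -0.36 (adjusted p = 0.0420). The exposed-state calls of Tpi1, Hk3 and Pfkfb4 were lost in 12, 7 and 14 of the 19 fits that left out 1 library. On log2(TPM + 1), Slc16a3 passed in naive mice only and Hk3 in neither state. Of the members on chromosome 9, which carries Icam1, Pkm lies 38.6 Mb and Pfkfb4 87.9 Mb from it.

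**Figure D5:**
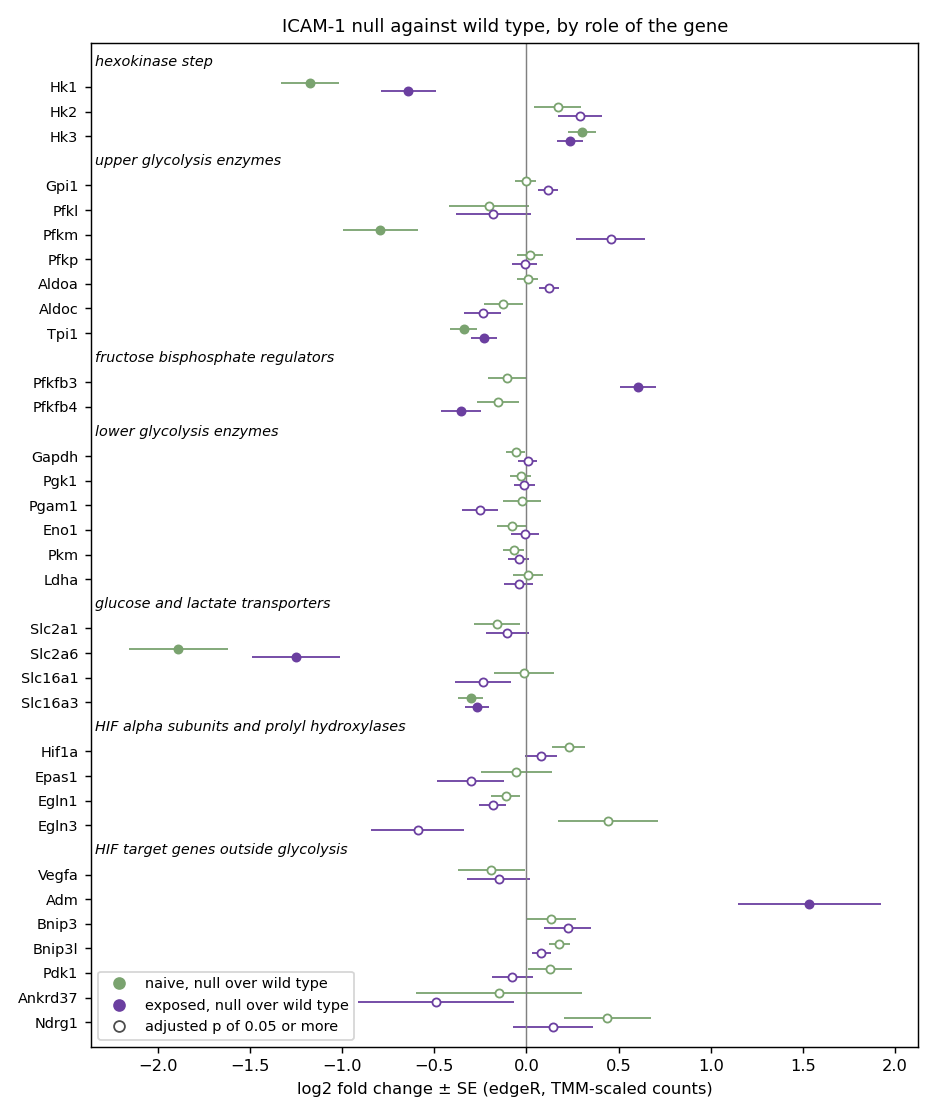
Log2 fold change of null over wild type (x axis, TMM-scaled counts) for each gene in naive (green) and exposed mice (purple), with bars for the SE and open points where the adjusted p was 0.05 or more. Slc2a6 and Hk1 lie to the left in both states, Pfkfb3 and Adm lie to the right in exposed mice, and the points of the 6 lower glycolytic enzymes are all open; Adm in naive mice is left out because all 4 wild type libraries held 0 counts.

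The size of the response itself was compared between genotypes by the interaction, the log2 fold change in null mice minus that in wild type mice. Of the 33 genes, 1 passed, with a higher value, beside 0.332% of all genes tested (0.18% higher and 0.151% lower). Pfkfb3 rose more in null mice, by 0.71 (SE 0.14, adjusted p = 0.0321). Its adjusted p was above 0.05 in 9 of the 19 fits that left out 1 library (wild type naive 1, 2 or 4, null naive 3 or 4, wild type exposed 1, 4 or 5, or null exposed 2), with a highest value of 0.0892, and the estimate stayed between 0.67 and 0.73 in those 9 fits. Pfkm had the next smallest adjusted p of the 33 genes, with an interaction of 1.25 (adjusted p = 0.0561). For Hk2, Slc2a1 and Hif1a the interactions were 0.12 (SE 0.17), 0.06 (SE 0.17) and -0.15 (SE 0.12), and none of them passed.

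Other genes of the same pathways were counted in 7 lists of 91 genes, also chosen with earlier results of these data known. Their counts stand beside the shares of all genes tested. These were 40.2% in wild type (20.1% higher and 20.2% lower) and 44.8% in null mice (21.4% higher and 23.4% lower). Several of the lists came near these shares, among them the other glycolytic genes, the pyruvate genes and the HIF regulators in wild type. Of 13 tested other glycolytic genes, 3 rose and 3 fell in wild type and 2 rose and 6 fell in null mice, with median log2 fold changes of -0.28 and -0.38. Eno2, the neuronal enolase, went from 0.582 ± 0.268 to 6.30 ± 1.36 TPM in wild type (log2 fold change 3.85, adjusted p = 3.18e-09) and from 0.609 ± 0.169 to 5.49 ± 2.16 TPM in null mice (3.47, adjusted p = 1.48e-09). Pfkfb2, the cardiac relative of Pfkfb3, fell in wild type and null mice, with log2 fold changes of -0.72 and -1.03 (adjusted p = 0.000494 and 3.83e-06). Ldhb, the subunit favouring pyruvate, rose in wild type (2.01, adjusted p = 0.000128) and had 0.78 in null mice (adjusted p = 0.0540).

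Of 12 genes of pyruvate import and the pyruvate dehydrogenase complex with its kinases and phosphatases, 2 rose and 3 fell in each genotype. Pdk4, a starvation-induced relative of Pdk1, fell from 8.65 ± 1.90 to 2.64 ± 0.570 TPM in wild type (adjusted p = 0.000114) and from 5.13 ± 1.58 to 0.894 ± 0.259 TPM in null mice (adjusted p = 1.69e-07). Pdp1, the phosphatase that opposes these kinases, fell too (-0.80 and -1.17, adjusted p = 0.000581 and 3.48e-06). Dld, a subunit of pyruvate dehydrogenase, rose by 0.43 and 0.47 (adjusted p = 1.35e-05 and 1.41e-06) on TMM-scaled counts, with overlapping TPM.

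Of 6 tested other sugar and lactate carriers, 1 rose and 2 fell in wild type, and 0 rose and 2 fell in null mice. Slc2a8, an intracellular carrier, fell in both genotypes (log2 fold changes -0.41 and -0.56, adjusted p = 0.000517 and 6.57e-06), and the urate carrier Slc2a9 fell too (-0.71 and -0.68, adjusted p = 0.00344 and 0.00277). Slc2a3, a high-affinity glucose carrier, rose in wild type (0.72, adjusted p = 0.00331), with 0.26 in null mice (adjusted p = 0.229).

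The pentose phosphate and glycogen genes gave no rise in either genotype. Of 7 pentose phosphate genes, 2 fell in wild type and 1 in null mice: Pgls (-0.33, adjusted p = 0.00313) and Taldo1 (-0.19, adjusted p = 0.00635) in wild type, and Rpia (-0.26, adjusted p = 0.00103) in null mice. Of 8 glycogen genes, 1 fell in wild type and 4 in null mice. Gys1, the glycogen synthase, fell in both (-0.52 and -0.72, adjusted p = 0.00482 and 0.000105), while the phosphorylase Pygb fell in null mice (-0.26, adjusted p = 0.0262).

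Other HIF genes gave a mixed picture for the regulators and mostly rises for the targets. Of 10 tested regulators, 3 rose and 2 fell in wild type and 3 rose and 3 fell in null mice. Vhl, the ubiquitin ligase subunit that removes hydroxylated HIF alpha, fell from 16.0 ± 2.52 to 6.86 ± 0.997 TPM in wild type (adjusted p = 9.62e-07) and from 21.9 ± 1.93 to 6.14 ± 0.617 TPM in null mice (adjusted p = 1.37e-10). Siah2, a ligase that degrades the hydroxylases, rose by 0.80 and 0.89 (adjusted p = 2.11e-05 and 1.60e-06). Arnt, the constant partner of the alpha subunits, fell in null mice (-0.50, adjusted p = 0.000114), with -0.23 in wild type (adjusted p = 0.0607).

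Of 27 tested other HIF targets, 16 rose and 1 fell in wild type and 14 rose and 3 fell in null mice, with median log2 fold changes of 0.80 and 0.52. Hilpda, a lipid droplet protein, went from 13.2 ± 4.07 to 99.5 ± 28.1 TPM in wild type (adjusted p = 8.41e-09) and from 8.47 ± 1.37 to 68.7 ± 21.6 TPM in null mice (adjusted p = 1.77e-09). Bhlhe40, a repressor that also responds to other stimuli, rose 4.35-fold and 5.41-fold (adjusted p = 1.40e-11 and 2.94e-13). Several of these genes answer to inflammatory signals as well as to HIF, and which input acted here was not tested.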

How the data were processed

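Lavage cell RNA from 19 mice was sequenced after poly(A) selection as 150-base paired reads to a planned 20 M per library, per the labels' protocols. The submitters' processing notes name STAR, StringTie 2 and build GRCm39, and the sources used here do not give strand or counting options. The authors deposited estimated counts per gene, as whole numbers without depth scaling, and TPM, which the authors scaled by gene length and library. With totals above the planned reads, 1 fragment was taken as about 4 counts, an assumption that sets the floor of 12 counts.

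The estimated counts needed no rounding, and edgeR 4.0.16 under R 4.3.3 was used for the tests (quasi-likelihood F test, two-sided, TMM, filterByExpr minimum count 10 and total 15), with all 19 libraries in 1 model of 4 group means. This left 20501 genes, over which p-values were Benjamini-Hochberg adjusted. The 5 contrasts share groups. SE is the log2 fold change divided by the root of F. Alternatives were RLE factors, DESeq2 1.42.0, limma 3.58.1 on log2(TPM + 1) and log2(TPM + 0.1), no filter, a filter of CPM of at least 1 in 4 libraries, only the groups compared, the replicate number as a block, each library left out, and wild type naive libraries 1 to 3 left out together.

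Members and lists were chosen with earlier results of these data known. Values in every library were given for members that passed in some comparison with a change of 1 or more on the log2 scale and for the most abundant of a role; Ldha, Pfkl and Pdk1 were given so after their values were seen. From each other list, the 3 genes with the smallest adjusted p in either exposure contrast were to be named, and a few of these are not reported here. No libraries of a group held identical counts (lowest chi-square per gene 3.45 over 36 pairs). Nothing in the labels states separate cages or days, so p-values measure the spread between these samples.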

Additional observations from a re-analysis of the deposited data

Results flagged for a closer look

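In 136 sets of TPM values, each for 1 gene in 1 group, 7 (5.15%) held a library set apart from the rest by more than its group's spread allows at the 95% level, and chance alone gives about 1 in 20. Pfkl in wild type naive library 3 was at 27.8 TPM, above the other 3 libraries. Pfkm in null naive library 5 was at 1.37 TPM, with the next highest at 0.783 TPM, though on TMM-scaled counts it was the lowest of its group. Pfkfb4 in wild type naive library 2 was at 167.8 TPM, below the next at 184.0 TPM. Pkm in wild type exposed library 5 was at 504.6 TPM, below the next at 602 TPM. Bnip3 in wild type exposed library 1 was at 13.5 TPM, below the next at 17.3 TPM. Bnip3l in null exposed library 3 was at 139 TPM, above the next at 128 TPM. Ndrg1 in null naive library 1 was at 2.59 TPM, below the next at 3.58 TPM.

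Pfkfb3 had an interaction of 0.71 on the log2 scale (adjusted p = 0.0321, edgeR). This call was lost in 9 of the 19 fits that left out 1 library, with no filter and on both TPM scales. The level of Pfkfb3 was higher in all 5 null exposed libraries than in any wild type exposed library, which is a difference within the exposed state.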

How the results depend on the processing

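The counts of genes that rose or fell were within 1.5 times the main count in all comparisons under RLE factors. On the TPM scale, with either pseudocount, 8 members rose and 16 fell in wild type and 7 rose and 13 fell in null mice, beside 41% of all genes lower in each genotype on log2(TPM + 1). The sign turned for 14 differences, given here with log2(TPM + 1) first and log2(TPM + 0.1) next. In wild type they were Hk3 -0.29 and -0.30, Gpi1 -0.36 and -0.36, Aldoa -0.28 and -0.28, Gapdh -0.27 and -0.27, Pgk1 -0.23 and -0.23, and Pkm -0.29 and -0.29. In null mice they were Hk3 -0.33 and -0.34, Gpi1 -0.21 and -0.21, Aldoa -0.15 and -0.15, Gapdh -0.16 and -0.16, Pgk1 -0.19 and -0.19, Pgam1 -0.043 and -0.043, Eno1 -0.30 and -0.30, and Pkm -0.24 and -0.24. Of the 2 members higher in naive null mice, 1 was left with only the groups compared, 0 on log2(TPM + 1), 1 on log2(TPM + 0.1) and 0 without wild type naive libraries 1 to 3, where the count of lower members was 1. Of the 5 lower in exposed null mice, 3 were left with no filter, with only the groups compared, without wild type naive libraries 1 to 3, and with the replicate number as a block. Over all genes, same-numbered libraries did not deviate together (27 pairs, r from -0.048 to 0.073). Of 19 libraries, 4 were most like one of their own number. Such correlations cannot exclude shared handling that touches only some genes, and the labels do not say what the number stands for. The replicate block changed no count of the other comparisons by over 1.5 times. For the interaction, members with a larger response in null mice numbered 0 with no filter, on both TPM scales and without wild type naive libraries 1 to 3, and 2 with the CPM filter and with DESeq2, which also gave 1 in the other direction; the cause was not tested. Leaving out 1 library at a time gave 14 to 17 higher and 3 to 4 lower in wild type, 16 to 19 and 4 to 4 in null mice, 1 to 3 and 4 to 5 for genotype in naive mice, 2 to 3 and 3 to 6 in exposed mice, and 0 to 1 and 0 to 0 for the interaction. Low counts limit Pfkm, Adm, Egln3 and Ankrd37 most.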

Other observations

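The order of levels among the 33 genes was steep and held across groups at its top. In wild type naive libraries Gapdh, Aldoa, Ldha, Pkm, Eno1, Gpi1 and Tpi1 followed each other from 1939 ± 133 to 222 ± 2.61 TPM, and no library of 1 gene overlapped those of the next. After exposure Aldoa and Ldha overlapped in both genotypes. The 5 enzymes Gapdh, Aldoa, Ldha, Pkm and Eno1 alone gave 0.520 to 0.573% of TPM in wild type naive and 0.423 to 0.517% in wild type exposed libraries, against 0.489 to 0.530% and 0.426 to 0.505% in null mice.

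The second Aldoa row, a separate gene record beside the main one, was at 1.55, 2.15, 1.03 and 1.496 TPM in wild type naive and 0, 0.388, 0, 0.188 and 0.492 TPM in wild type exposed libraries. Null libraries held 1.16, 0.771, 2.27, 1.95 and 2.19 TPM naive and 0, 0.115, 0.207, 0.275 and 0 TPM exposed. No exposed library reached the naive range in either genotype. Counts per library were 18 to 49 and 0 to 10 in wild type and 20 to 65 and 0 to 7 in null mice, naive and exposed, so every exposed library lay under 12 counts and no fold is given. The row passed as lower in both genotypes (adjusted p = 0.0437 and 0.00563, edgeR), and the wild type call was lost in 11 of the 19 fits without 1 library.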
